A study of Mus musculus with 9 samples.

Results

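Meiotic arrest and maturation control is described here through 9 genes, Gpr3, Gpr12, Adcy3, Pde3a, Prkar2b, Wee2, Cdc25a, Cdc25b and Marf1, which were taken by name from the 30153 genes counted in the series. All 9 were matched to a gene identifier. Libraries were made from pooled mouse oocytes at metaphase II (MII), ovulated eggs that have left the first meiotic arrest and wait for fertilisation in the second. All donors were 4-week-old females of mixed genetic background with the genotype Sycp3CreERT2/+; Rosa26nT-nG/+, so every group carried both alleles. Cre recombinase is expressed from Sycp3, a gene of the meiotic chromosome axis, and becomes active with tamoxifen, and the Rosa26 reporter makes nuclear tdTomato before recombination and nuclear GFP after it. Females received 5 IU PMSG and, 48 h later, 5 IU hCG. Eggs were taken 13 h after hCG, stripped of their cumulus with hyaluronidase, and sorted manually by fluorescence into the groups GFP High, GFP Low and RFP, with 3 libraries in each. Pools held 15 to 16 oocytes in GFP High, 49 to 57 in GFP Low and 87 to 100 in RFP, so pool size and group cannot be told apart.

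A fully grown mouse oocyte is held in prophase by cyclic AMP that it makes itself. The receptor GPR3 and its relative GPR12 activate Gs without an added ligand, Gs drives the adenylyl cyclase ADCY3, and cAMP keeps protein kinase A (PKA) active. PKA in turn favours WEE2, the oocyte kinase that places inhibitory phosphate on CDK1, and restrains CDC25B, the phosphatase that removes it. Cyclic GMP from the follicle reaches the oocyte through gap junctions and inhibits PDE3A, the oocyte phosphodiesterase that destroys cAMP. The LH surge, for which hCG stands in here, lowers cGMP, frees PDE3A, and lets CDK1 start maturation. MARF1 is an oocyte RNA regulator that female mice need for meiotic progression and for control of retrotransposons. In MII eggs these transcripts are what is left of a store made mostly before maturation, because transcription is silent in fully grown and maturing oocytes.

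The promoter windows of the receptor pair and of Wee2 are printed because Gpr3 and Gpr12 encode related receptors and had very different levels, and Wee2 had the highest level per length of the 9 genes. They come from RefSeq on build GRCm38.p6, and run 5′ to 3′ on the gene's strand from 250 bases before to 50 bases after the annotated start. Windows were found for 8 of the 9 genes, all but Pde3a. Capitals mark matches to any of 4 motifs searched on both strands: a core promoter box, spelled TATAAA; the core of the cAMP response element, TGACG; the E-box, CANNTG; and the NOBOX element, TAATTG.
Gpr3, chr4:133212487-133212786, minus strand: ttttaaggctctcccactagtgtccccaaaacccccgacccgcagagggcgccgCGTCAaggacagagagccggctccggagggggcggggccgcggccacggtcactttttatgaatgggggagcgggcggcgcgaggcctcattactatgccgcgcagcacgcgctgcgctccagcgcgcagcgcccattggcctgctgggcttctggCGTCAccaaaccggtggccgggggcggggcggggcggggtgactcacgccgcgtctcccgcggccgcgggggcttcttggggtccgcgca
Gpr12, chr5:146585190-146585489, minus strand: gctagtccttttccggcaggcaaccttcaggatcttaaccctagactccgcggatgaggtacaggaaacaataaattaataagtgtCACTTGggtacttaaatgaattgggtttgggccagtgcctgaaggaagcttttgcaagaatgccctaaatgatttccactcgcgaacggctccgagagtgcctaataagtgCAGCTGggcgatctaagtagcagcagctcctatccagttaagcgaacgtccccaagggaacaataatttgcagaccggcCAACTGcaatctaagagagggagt
Wee2, chr6:40442613-40442912, plus strand: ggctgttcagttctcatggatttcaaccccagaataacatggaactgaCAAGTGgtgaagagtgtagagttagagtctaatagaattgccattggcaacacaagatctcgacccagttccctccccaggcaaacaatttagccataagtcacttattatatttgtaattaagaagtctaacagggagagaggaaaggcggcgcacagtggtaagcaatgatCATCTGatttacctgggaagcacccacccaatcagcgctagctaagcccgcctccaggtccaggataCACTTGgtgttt
The Gpr3 window had a GC content of 72.0% and 38 CpG dinucleotides, against medians of 52.7% and 7 over 32851 windows of the same length. It held 2 cores of the cAMP response element, 196 and 40 bases before the start, both on the opposite strand and printed as CGTCA. Of all windows, 20.8% held this core at least once. Of 2 RefSeq windows for Gpr12, the printed one, at the 5′ end of the gene in GENCODE, had 48.3% GC and 11 CpG. The Wee2 window had 46.0% GC and 5 CpG, and its RefSeq start lay 3775 bases inside the GENCODE gene. Gpr12 and Wee2 each held 3 E-boxes, a motif present in 72.3% of windows, and the Gpr3 window held none. No core promoter box (13.6% of windows) and no NOBOX element (8.0%) occurred in the 3 printed windows. The second Gpr12 window, not printed, also held 3 E-boxes and held 1 NOBOX element. These matches describe letters and were not tested as binding sites.

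Library totals ran from 19381677 to 27746256 counts, so a gene at 1 CPM, the count scaled to library size, rested on 19.4 reads in the smallest library. The reporter eGFP was counted as the labels imply, at 36 to 43.9 CPM in GFP High, 14.5 to 23.9 in GFP Low and at most 0.594 in RFP. The transcript of tdTomato was scarce throughout. It stood at 1.71 to 3.55 CPM in the RFP libraries, at 0.763 to 1.26 in those of GFP Low and at most 0.0899 in those of GFP High. All GFP Low libraries thus held both reporters. RFP 2 and RFP 3 also held both, with 8 and 16 eGFP counts, and RFP 1 had 0. All 12 oocyte markers were counted in every library, at a summed 10088 to 12371 CPM, highest in GFP High. Of 16 cumulus and granulosa markers, 5 to 13 exceeded 3 counts in a library, and Pgr stayed at 2 counts or fewer. Without Nr5a2, which alone had group means of 117.6 to 125.9 CPM, these markers summed to 11.1 to 58.2 CPM (GFP High), 15.4 to 55.5 CPM (GFP Low) and 17.8 to 75.6 CPM (RFP). Within these ranges GFP High 1, GFP Low 1 and RFP 2 stood highest in their groups. Leukocyte and oviduct markers summed to no more than 3.25 and 2.55 CPM. The labels do not say that the libraries of a group came from separate animals, so the p-values below measure only the spread between these samples.

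Per length, the 9 transcripts spanned from among the most abundant of the egg to near absence (levels in CPM per kilobase of the files' gene length, mean ± SD over 9 libraries). Wee2 stood highest at 112.3 ± 5.20 and ranked 429 of 15857 genes. Pde3a followed at 48.2 ± 3.40, rank 1193. Marf1 had 19.5 ± 2.13, Cdc25a 19.3 ± 1.80, Cdc25b 18.7 ± 3.62, Prkar2b 16.0 ± 2.18 and Gpr3 14.5 ± 1.88, with ranks from 2746 to 3435. Among these 5 genes, the ranges over libraries of each neighbouring pair in the order overlapped. Adcy3 had 0.508 ± 0.227, rank 12271, and Gpr12 0.115 ± 0.118, rank 15006. The steps from Wee2 to Pde3a (2.33 times), from Pde3a to Marf1 (2.47 times) and from Gpr3 to Adcy3 (28.6 times) separated the ranges completely. The inhibitory kinase of CDK1 and the cAMP-degrading enzyme were thus the most abundant messages of the set, and the cyclase and the second receptor the scarcest.

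**Figure D1:**
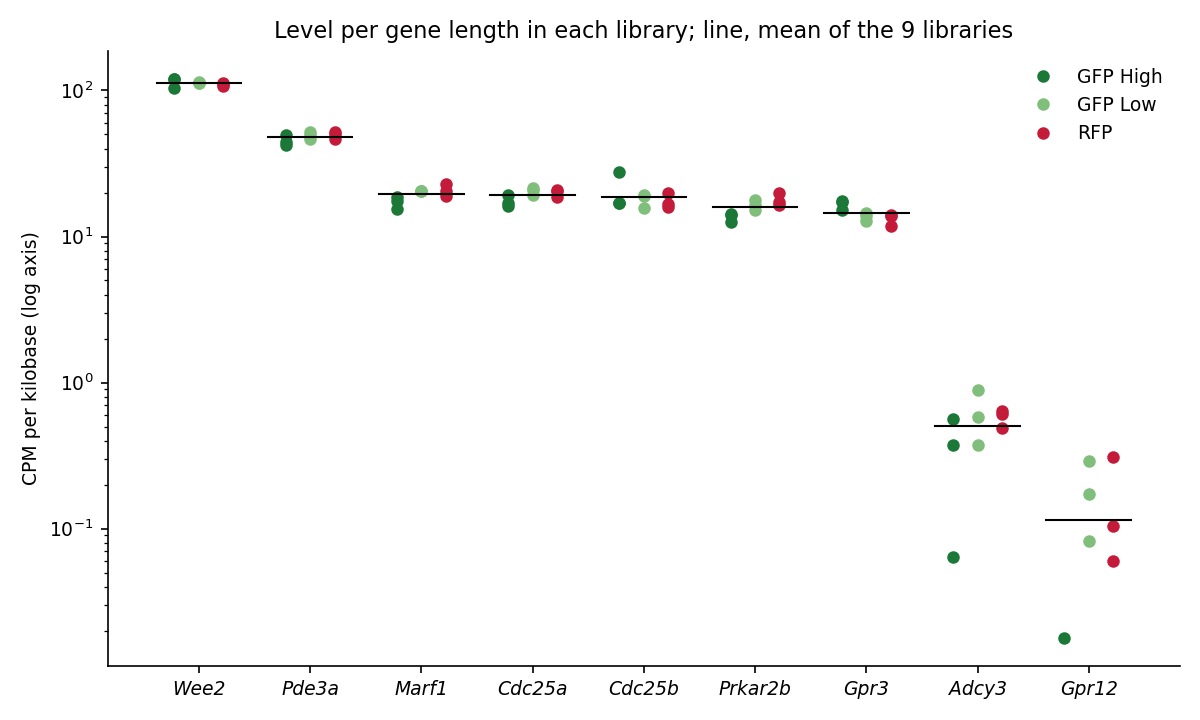
Level of each of the 9 genes in CPM per kilobase of gene length, on a log axis, with 1 point per library coloured by group and a line at the mean of the 9 libraries. Wee2 and Pde3a stand above the other genes, Marf1, Cdc25a, Cdc25b, Prkar2b and Gpr3 share 1 band, and Adcy3 and Gpr12 lie far below; the 2 GFP High libraries with Gpr12 at 0 cannot be drawn on a log axis.

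Gpr3 (ENSMUSG00000049649, GRCm38 chromosome 4, 133209340 to 133212536, minus strand) encodes the main Gs-coupled receptor known to hold arrest in mouse oocytes. Its level was 47.8, 41.5 and 47.1 CPM in GFP High 1, 2 and 3, then 35.2, 37.6 and 39.4 in the GFP Low libraries and 38.6, 32.1 and 37.7 in those of RFP. The lowest GFP High library lay above the highest of either other group, while GFP Low and RFP overlapped. The log2 fold change of GFP High against RFP was 0.34 (SE 0.15, 95% interval from -0.00035 to 0.68, edgeR quasi-likelihood adjusted p = 0.997). Against GFP Low it was 0.28 (SE 0.15, interval -0.04 to 0.61, edgeR adjusted p = 0.998). Neither difference passed the threshold, an adjusted p of 0.05 over all genes tested. Over 115 bases its transcripts overlap those of Cd164l2 on the opposite strand, which had up to 6983 counts and a log2 fold change of 0.14 (SE 0.11) in GFP High against RFP. Whether the counting used strand is not given in the sources used here, so reads of that stretch cannot be assigned between the pair. In pooled eggs, a lower level in every egg and a lack of the transcript in some eggs cannot be told apart.

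Gpr12 (ENSMUSG00000041468, chromosome 5, 146582398 to 146585239, minus strand) encodes the related receptor. Its counts were 0, 0 and 1 (GFP High 1, 2 and 3), 4, 19 and 12 (GFP Low), and 4, 6 and 21 (RFP). All 3 GFP High libraries lay at or under the limit of 3 counts, and all 6 others above it. Summed over libraries, 1 count in GFP High stood against 31 in RFP, a ratio of 0.0329 per total count (95% interval 0.000808 to 0.198, counting error only), and against 35 in GFP Low, a ratio of 0.0282 (0.000694 to 0.168). Gpr12 did not reach the filter on low counts in either comparison that includes GFP High. Without the filter edgeR gave an adjusted p = 0.632 against RFP and an adjusted p = 0.661 against GFP Low. In the joint test of the 3 groups, where it did pass the filter, edgeR gave an unadjusted p under 0.05 and an adjusted p = 1.00. A minority of scarce transcripts were missing from GFP High, but more of them than from GFP Low. Of 2884 genes with a total of 20 to 60 counts in RFP, 477 (16.5%) had no more than 1 count over the 3 GFP High libraries, against 67 (2.32%) over the 3 GFP Low libraries. Between GFP Low and RFP the log2 fold change of Gpr12 was 0.20 (SE 0.88, edgeR adjusted p = 1.00), with an interval from -1.70 to 2.10 that leaves its direction undetermined at this depth.

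Adcy3 (ENSMUSG00000020654, chromosome 12, 4133103 to 4213525, plus strand) encodes the cyclase whose loss impairs arrest in mouse oocytes. GFP High 1, 2 and 3 held it at 0.402, 2.32 and 3.51 CPM, from 11, 57 and 78 counts. The GFP Low libraries held 2.32, 5.54 and 3.64 CPM, and those of RFP 3.96, 3.82 and 3.04. The groups overlapped, and GFP High 1 stood below every other library. The log2 fold change of GFP High was -0.79 against RFP (SE 0.73, by edgeR, adjusted p = 0.997) and -0.89 against GFP Low (SE 0.77, edgeR adjusted p = 0.998). The first of these was -0.31 without GFP High 1, -1.41 without GFP High 3 and -1.37 with limma-voom. It was -1.31 with the summed cumulus and granulosa markers, Nr5a2 included, as a covariate. Of its transcript sequence, 924 bases are shared with Cenpo on the opposite strand, which had up to 4709 counts, so here too reads of the shared stretch cannot be assigned.

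Pde3a (ENSMUSG00000041741, chromosome 6, 141249269 to 141507448, plus strand) was the member with the most reads. GFP High 1, 2 and 3 held 633, 542 and 566 CPM, GFP Low 635, 663 and 589.6, and RFP 639, 591 and 664. The ranges overlapped in every pair of groups. Its log2 fold change was -0.12 in GFP High against RFP (SE 0.09, interval -0.31 to 0.08) and -0.00 in GFP Low against RFP (SE 0.08, interval -0.17 to 0.16). Differences above 1.24-fold in the first pair and 1.12-fold in the second lay outside these 95% intervals.

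Prkar2b (ENSMUSG00000002997, chromosome 12, 31958476 to 32061296, minus strand) encodes the type II beta regulatory subunit that holds PKA inactive until cAMP binds. Its level was 46.0, 52.4 and 51.1 CPM in GFP High 1, 2 and 3, against 65.1, 60.3 and 55.9 in the GFP Low libraries and 72.2, 62.5 and 60.3 in those of RFP. All GFP High libraries lay below all others, and GFP Low and RFP overlapped. The log2 fold change was -0.38 in GFP High against RFP (SE 0.14, 95% interval -0.69 to -0.07, edgeR adjusted p = 0.997). It was -0.28 against GFP Low (SE 0.13, interval -0.57 to 0.02, edgeR adjusted p = 0.998). The 2 comparisons share the GFP High libraries. The opposite placing of Gpr3 and Prkar2b showed in their ratio per kilobase, which was 1.39, 1.06 and 1.23 in GFP High 1, 2 and 3. The GFP Low libraries had 0.722, 0.832 and 0.942 and those of RFP 0.713, 0.687 and 0.834. This ratio was formed after the levels were known and was not tested. Its separation follows by arithmetic from the 2 placings and is not further evidence.

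**Figure D2:**
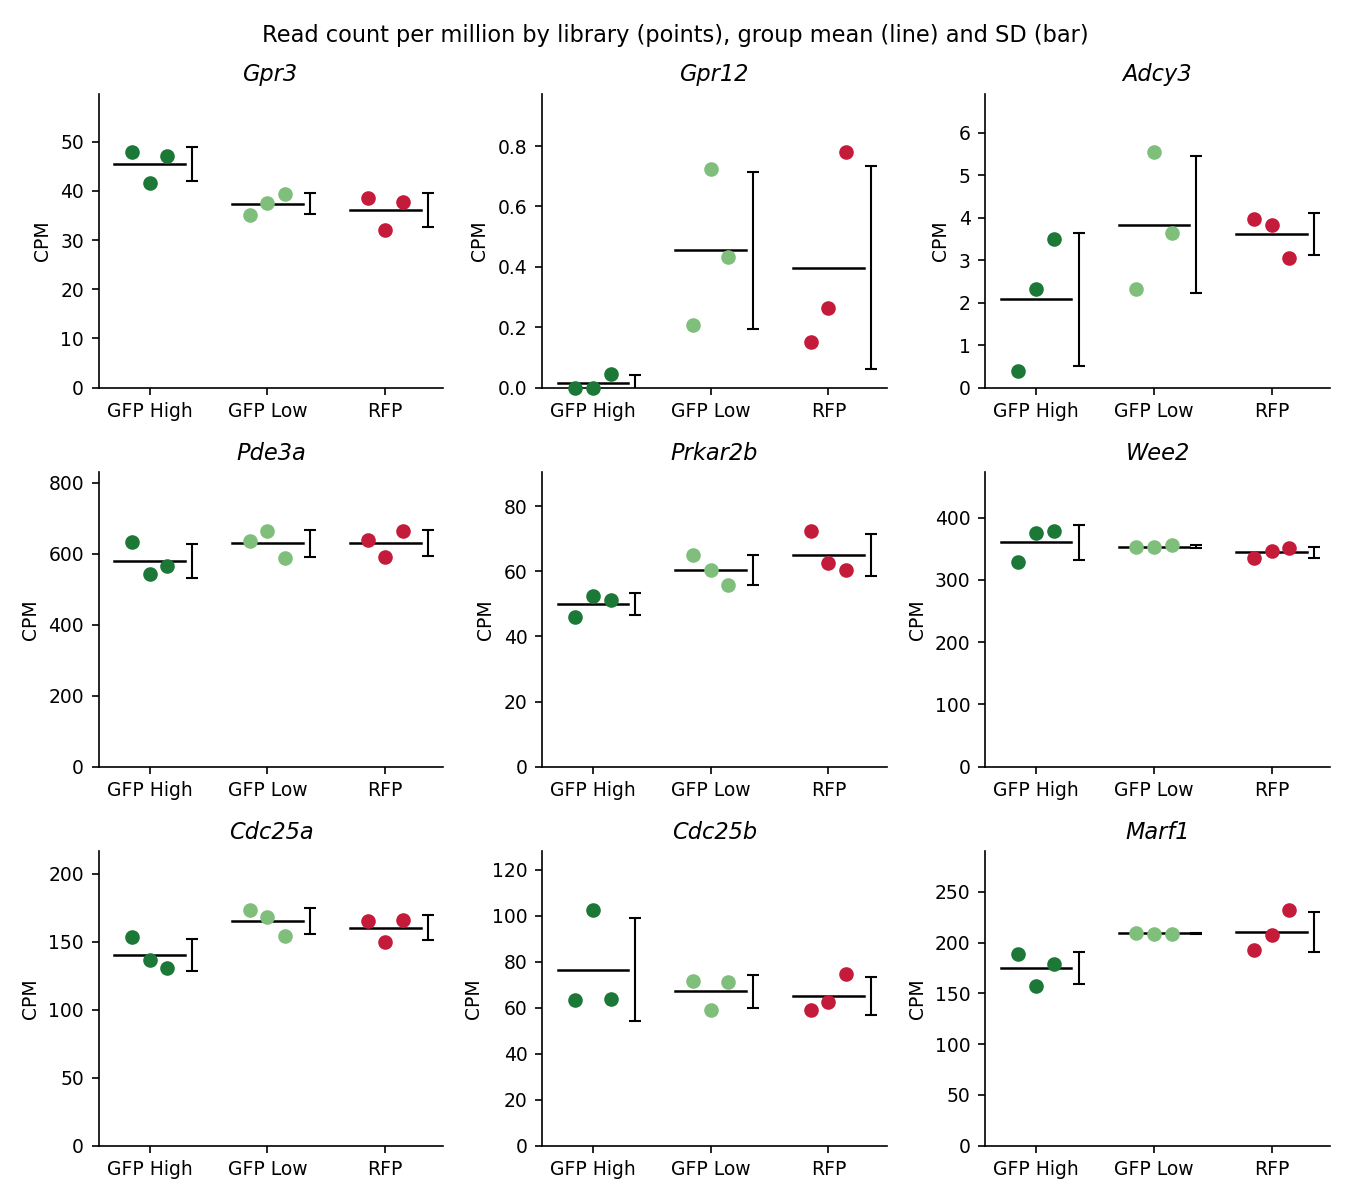
CPM of each of the 9 genes in every library (points), with the mean (line) and SD (bar) of the 3 libraries of each group; each panel has its own linear axis that starts at 0, where the lower SD bar of Gpr12 in GFP High ends. The GFP High points of Gpr3 lie above, and those of Gpr12, Prkar2b and Marf1 below, all points of RFP, while the ranges of GFP High and RFP overlap for the other 5 genes.

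Wee2 (ENSMUSG00000037159, chromosome 6, 40439088 to 40466813, plus strand) was the steadiest member, with a coefficient of variation of 4.63% over the 9 libraries. Wee2 stood at 328, 375 and 378 CPM in GFP High 1, 2 and 3, at 352.0, 352.1 and 356.7 in the GFP Low libraries and at 335, 346 and 352 in those of RFP. GFP High enclosed the ranges of both other groups. GFP Low lay above RFP in all 3 libraries, though by an edgeR log2 difference of 0.04 (SE 0.07, adjusted p = 1.00). GFP High against RFP gave 0.07 (SE 0.09, interval -0.13 to 0.27), so the interval ends at 1.21-fold.

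Cdc25a (ENSMUSG00000032477, chromosome 9, 109875579 to 109893895, plus strand) encodes a phosphatase that activates CDK1 and CDK2. GFP High 1, 2 and 3 held 153, 137 and 131 CPM, GFP Low 173, 168 and 154, and RFP 165, 149.9 and 166. GFP High lay below GFP Low in every library, with the nearest values 153.3 and 154.4, and overlapped RFP. The log2 fold change was -0.23 against GFP Low (SE 0.10, interval -0.46 to -0.01, edgeR adjusted p = 0.998) and -0.19 against RFP (SE 0.11, interval -0.43 to 0.05, edgeR adjusted p = 0.997).

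Cdc25b (ENSMUSG00000027330, chromosome 2, 131186949 to 131198497, plus strand) encodes the phosphatase that mouse oocytes require to resume meiosis. Its level was 63.5, 102 and 63.7 CPM in GFP High 1, 2 and 3, then 71.6, 58.9 and 71.0 in the GFP Low libraries and 58.9, 62.3 and 74.5 in those of RFP. GFP High 2 stood apart, and the other 8 libraries lay between 58.9 and 74.5 CPM. The coefficient of variation within GFP High was 29.3%, against a median of 13.4% for 6072 genes of at least 20 CPM. The log2 fold change of 0.24 for GFP High over RFP (SE 0.20, edgeR adjusted p = 0.997) was -0.04 without that library. In GFP High 2, Cdc25a per kilobase was 0.620 of Cdc25b, and in the other libraries the ratio ran from 0.954 to 1.33. Wee2 per kilobase exceeded Cdc25b 4.36 times in GFP High 2 and 5.60 to 7.10 times elsewhere.

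Marf1 (ENSMUSG00000060657, chromosome 16, 14109173 to 14163351, minus strand) stood at 188, 157 and 179 CPM in GFP High 1, 2 and 3, at 209.6, 208.9 and 208.6 in the GFP Low libraries and at 193, 208 and 232 in those of RFP. GFP High lay below both other groups in every library. The coefficient of variation was 0.232% in GFP Low and 9.38% in RFP, with medians of 7.39% and 8.73% for genes of at least 20 CPM. At 4064, 5472 and 5788 counts in GFP Low 1, 2 and 3, the first value lies below counting error alone. It therefore does not show a steadier transcript in GFP Low. The log2 fold change was -0.25 against GFP Low (SE 0.10, interval -0.47 to -0.04, edgeR adjusted p = 0.998) and -0.26 against RFP (SE 0.11, interval -0.51 to -0.01, edgeR adjusted p = 0.997). Ppp2cb, a phosphatase subunit known as a transcript that MARF1 keeps low, had no read in all 3 GFP High libraries, against 18, 34 and 4 reads (GFP Low) and 17, 19 and 0 (RFP). It belonged to a fixed list but is named here because of its values, and at these counts edgeR's filter left it out of both comparisons with GFP High. Its RFP total falls in the class of 20 to 60 counts, where 16.5% of 2884 genes had no more than 1 count over GFP High. A link between Ppp2cb and the Marf1 level was not tested.

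Of the 9 genes, none passed the adjusted threshold in any comparison. In GFP High against RFP, 0 of 8 tested members were called, beside 0.0135% of 14829 genes. At an unadjusted edgeR p under 0.05, 2 of 8 (Prkar2b and Marf1) stood beside 4.09% of all genes. Both were lower in GFP High, beside 1.81% of genes in that direction, and 0 were higher, beside 2.27%. Groups did not overlap for 1 tested member higher in GFP High (Gpr3, beside 4.88% of genes) and for 2 lower (Prkar2b and Marf1, beside 6.99%). Among the 8, the log2 fold change was above 0 for 3 and its median was -0.15, against -0.01 for all genes tested. Other tools also called none, with 0 members past the threshold by DESeq2 and by limma-voom. In the authors' deposited table the lowest adjusted p of a member was 0.50, for Prkar2b.

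Between GFP Low and RFP the members' log2 fold changes were small, with a median size of 0.04, where GFP High gave 0.25 beside RFP and 0.24 beside GFP Low. Of 9 tested members 0 were called (0.0197% of 15199 genes), and 0 had an unadjusted edgeR p under 0.05 (2.62% of genes, 1.28% higher and 1.34% lower). DESeq2 and limma-voom called none either. Among the members only Wee2 had groups that did not overlap, higher in GFP Low (3.59% of genes), and 0 were lower in that sense (4.11%). The median log2 fold change of the members was 0.04. The median size over all genes tested was 0.13 in this pair, 0.22 and 0.21 in the others. For the 7 members apart from Gpr12 and Adcy3, the 95% intervals ended at 1.27-fold or less.

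Setting GFP High beside GFP Low, edgeR called 0 of 8, beside 0% of 14785 genes. The unadjusted p was under 0.05 for 2 members (Cdc25a and Marf1), beside 3.77% of genes. Both were lower in GFP High (1.92% of genes) and 0 were higher (1.85%). DESeq2 and limma-voom called none. Groups did not overlap for Gpr3, higher in GFP High (4.69% of genes), and for Prkar2b, Cdc25a and Marf1, lower (6.84%). The median log2 fold change was -0.17, against -0.00 for all genes. In the authors' deposited table the lowest adjusted p was 0.676, for Marf1. In the joint edgeR test of the 3 groups 0 of 9 members were called (0.0126% of 15857 genes), and 3 of 9, Prkar2b, Marf1 and Gpr12, had an unadjusted p under 0.05 (4.65% of genes). Both comparisons with GFP High share its libraries, so their resemblance is not independent evidence.

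**Figure D3:**
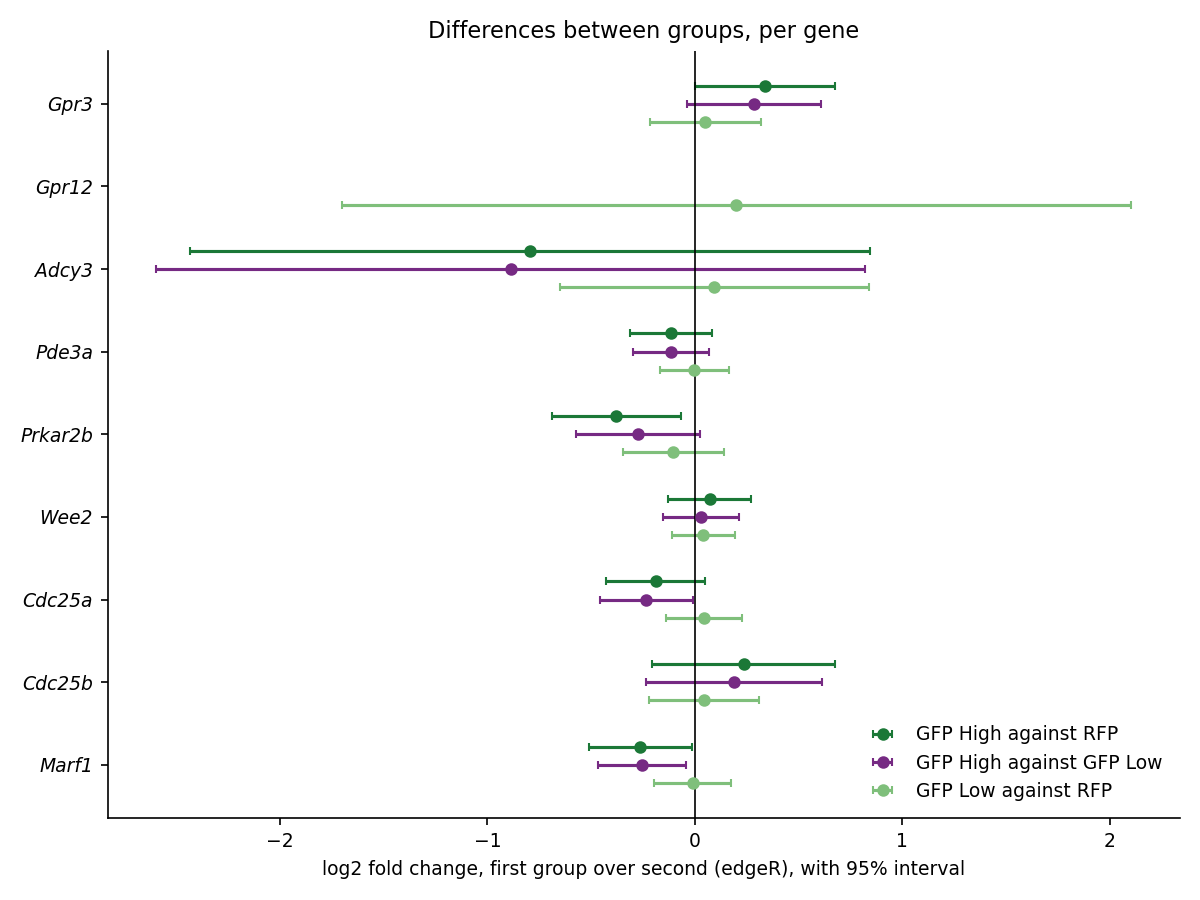
Log2 fold change of each tested member (points) with its 95% interval (bars) from edgeR, for the 3 pairs of groups. Intervals are narrow and centred near 0 for GFP Low against RFP except for Adcy3 and Gpr12; in GFP High against RFP the whole intervals of Prkar2b and Marf1 lie below 0, that of Gpr3 reaches 0, and no adjusted p passed 0.05.

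Within their families, the members differed in how much of the family's message they made up (shares of summed CPM per kilobase, mean of 9 libraries). Gpr3 made up 99.1% of the 3 constitutively active receptors, Gpr12 0.830% and Gpr6, with at most 5 counts in a library, 0.081%. Adcy3 made up 2.12% of 10 adenylyl cyclases (0.301% to 3.55% by library). Adcy9 and Adcy5 led that family with 46.4% and 34.1%, at 10.9 and 8.09 CPM per kilobase. Pde3a made up 56.7% of 17 phosphodiesterases (53.1% to 60%), followed by Pde8a with 11.6%, Pde1b with 10% and Pde3b with 9.30%.

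Prkar2b held 28.8% of the 4 PKA regulatory subunits, behind Prkar1a with 49.6% and ahead of Prkar2a with 21.4%. Wee2 held 93.7% of the kinases that inhibit CDK1 (92.4% to 94.4%), against 4.09% for Wee1 and 2.22% for Pkmyt1. Cdc25a and Cdc25b held 45.5% and 43.6% of their family and Cdc25c 10.9%, and Cdc25b led in GFP High 2 with 57.1%. The receptor, phosphodiesterase and inhibitory kinase of the egg were thus each mostly 1 gene, while the phosphatases and the cyclases were shared among several.

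**Figure D4:**
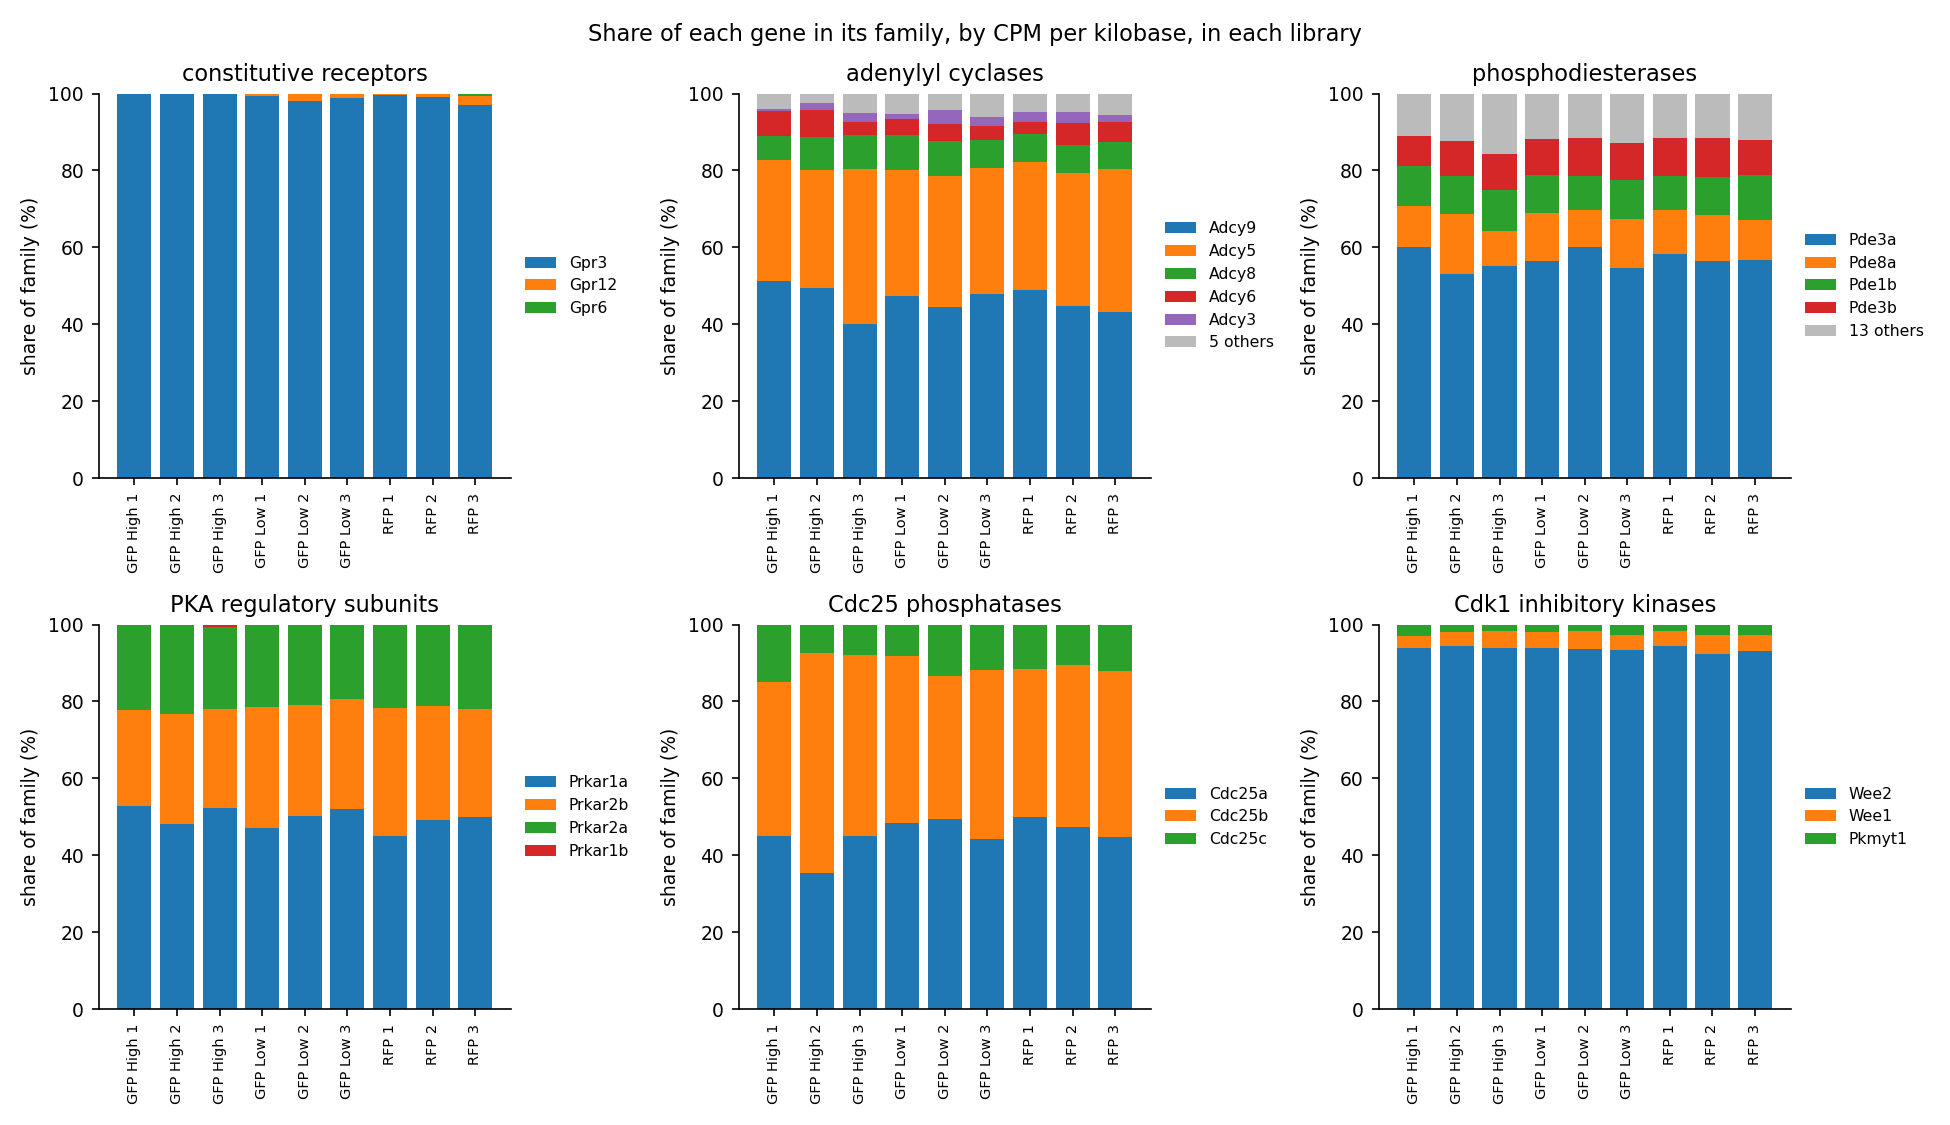
Share of each gene in the summed CPM per kilobase of its family, as stacked bars for each of the 9 libraries in 6 families. Gpr3, Pde3a and Wee2 make up most of their families in every library, Adcy3 is a thin band among the cyclases, and Cdc25b takes its widest share, 57.1%, in GFP High 2.

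The rest of the pathway was read from 6 lists, and in every list and comparison edgeR called 0 genes. Of the cAMP and PKA genes, 17 of 22 were tested in each comparison, with median log2 fold changes of -0.10 (High against RFP), -0.06 (Low against RFP) and 0.01 (High against Low). Per length its leading genes were the inhibitory G protein subunits Gnai3 (37.3 CPM per kilobase), Gnai2 (31.3) and Gnai1 (18.1), and the PKA subunit Prkar1a (27.5). An unadjusted p under 0.05 was seen for 3 of the 17, all in GFP Low against RFP, beside 2.62% of all genes. These were Gnas, the Gs alpha subunit itself (log2 -0.61, SE 0.16, edgeR adjusted p = 1.00), Gnai1 (-0.30) and the PKA inhibitor Pkig (0.26). Genes with an unadjusted p under 0.05 are named here after their values were seen.

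Of the phosphodiesterases other than Pde3a, 14, 13 and 13 of 17 listed genes were tested in the same order, with medians of -0.10, -0.02 and -0.07 and none at an unadjusted p under 0.05. Per length Pde8a led at 9.83 CPM per kilobase, followed by Pde1b at 8.52, Pde3b at 7.90 and Pde9a at 2.65. Pde3b, the closest relative of Pde3a, had 63.6 ± 4.83 CPM across GFP High and 76.9 ± 1.07 across RFP (SD, n = 3). Its groups did not overlap (log2 -0.27, SE 0.12, edgeR adjusted p = 0.997). It was the only 1 of the 14 tested genes lower in GFP High in that sense, beside 6.99% of all genes. Of 12 A-kinase anchors, which tether PKA to sites in the cell, 11 were tested, and 0 had an unadjusted p under 0.05. Akap12 led them at 173 CPM per kilobase, followed by Akap1 at 70.5, Akap7 at 27.5 and Akap8 at 19.4.

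Of 26 genes of the CDK1 switch, 25, 26 and 25 were tested, with medians of -0.05, -0.01 and -0.02. The 14-3-3 proteins, which bind phosphorylated CDC25, led with Ywhaz at 354.8, Ywhae at 257.8 and Ywhag at 152.5 CPM per kilobase, and cyclin B1 (Ccnb1) followed at 87.4. In GFP High against RFP, Ccnb2, which encodes cyclin B2, had an edgeR log2 difference of 0.24 (SE 0.10, adjusted p = 0.997). Fzr1, an activator of the anaphase-promoting complex, had 0.34 (SE 0.13, edgeR adjusted p = 0.997). For GFP High over GFP Low, Ccnb2 had 0.30 and Cdc20, the activator used in M phase, 0.33 (edgeR adjusted p = 0.998 for both). These were the values of the list with an unadjusted p under 0.05, 2 of 25 in each comparison, beside 4.09% and 3.77% of all genes.

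Of 14 follicle signals only 7 were tested, with medians of 0.25, -0.06 and 0.26. The leading gene was Gja4, the oocyte's gap junction protein connexin 37, at 471.5 CPM per kilobase, followed by Egfr at 11.5, Prkg1 at 3.99 and Gja1 at 0.516. The Gja4 mean was 915 ± 119 CPM for GFP High, 719 ± 57.1 for GFP Low and 749 ± 144 for RFP (SD, n = 3). Its log2 fold change in GFP High was 0.35 against GFP Low (SE 0.10, edgeR adjusted p = 0.998). Against RFP it was 0.29 (SE 0.14, edgeR adjusted p = 0.997), and the groups overlapped. An unadjusted edgeR p under 0.05 was seen for 1 of the 7, Gja4 against GFP Low, beside 3.77% of all genes, and for 0 against RFP (4.09%). Of 11 decapping genes, whose products act with mRNA decay machinery that MARF1 is known to recruit, 10, 11 and 10 were tested with medians of -0.06, 0.01 and -0.05. Lsm14b and Dcp1a led them at 349.1 and 136.2 CPM per kilobase, followed by Lsm14a at 69.3 and Edc4 at 46.2, and 0 had an unadjusted p under 0.05.

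Of the 12 oocyte markers, 11 had a log2 fold change above 0 in GFP High against RFP, with a median of 0.20. Groups did not overlap for 5 of them, all higher in GFP High, beside 4.88% of all genes, and edgeR called 0. An unadjusted edgeR p under 0.05 was seen for 5, all higher, beside 2.27% of all genes. Against GFP Low all 12 were above 0, with a median of 0.15. Of these, 5 did not overlap (4.69% of genes) and 4 had an unadjusted edgeR p under 0.05 (1.85%). In GFP Low against RFP, 5 of 12 were above 0, with a median of -0.02. The cumulus and granulosa markers had a median of -0.65 over 11 tested genes in GFP High against RFP, with SEs of up to 2.01 (Inha). Of these 11, 0 had groups that did not overlap and 0 had an unadjusted edgeR p under 0.05. This median therefore does not establish a lower cumulus content in GFP High. An edgeR covariate was formed from the summed counts of all 16 cumulus and granulosa markers. This sum includes Nr5a2, with group means of 117.6 to 125.9 CPM, so it holds mostly Nr5a2 and is not a clean measure of cumulus RNA. With this covariate, the log2 fold changes of Gpr3, Prkar2b and Marf1 against RFP were 0.34, -0.40 and -0.25, at an edgeR adjusted p = 0.947 for each. The part of the oocyte markers in these values was not tested.

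Likeness of pattern was described by Pearson's r of log2 CPM, with a prior count of 2 added, over the 9 libraries. Each member was compared with genes of at least 20 CPM. These values share libraries and depth, and the best of about 6062 genes is high by selection. The nearest genes to Gpr3 were Lpcat4 (r = 0.929) and Lamtor2 (0.891), and to Gpr12 Rbm19 (0.977) and Hdgf (0.976). Gpr12 itself averaged 0.289 CPM, with 0, 0 and 1 counts in GFP High 1, 2 and 3, so its r rests on values near the floor. Pde3a was nearest to Zfp84 (0.972) and Ankhd1 (0.947), Prkar2b to Hnrnpf (0.956) and Oog2 (0.946), and Wee2 to Tcf3 (0.940) and Pprc1 (0.937). Cdc25a was nearest to Nek7 (0.937) and Mapk9 (0.936), Cdc25b to Ltn1 (0.939) and Tspan14 (0.936), and Marf1 to Rad54l2 (0.980) and Skiv2l2 (0.962). Between members the highest r was 0.885, for Pde3a with Cdc25a, and the lowest -0.776, for Gpr3 with Prkar2b.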

How the data were processed

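Poly-A RNA of pooled MII oocytes was sequenced as paired ends in 9 libraries. The authors deposited a table for each pair of groups with the raw count of every gene per library. The submitters' processing notes name fastp, HISAT2 2.0.5, featureCounts 1.5.0-p3, DESeq2 1.20.0 and the build mm10. A signal normalised by size factors and FPKM were also deposited per library, and neither entered a test. Fold changes (log2) with raw and adjusted p-values, as deposited by the authors, are quoted only where their table is named.

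The tables were joined by gene identifier to 30153 genes, with 178 genes set to 0 in a table that lacked them, and coordinates were taken from GENCODE M21 (GRCm38). Each pair of groups was tested on its 6 libraries, and the 3 groups on all 9, with edgeR 4.0.16 under R 4.3.3 (filterByExpr, TMM, quasi-likelihood F test, no covariate, Benjamini-Hochberg over all genes tested, threshold 0.05). Standard errors and 95% intervals come from the F statistic. Levels are CPM scaled by TMM over 9 libraries, and per kilobase where genes are compared. DESeq2 1.42.0 and limma 3.58.1 (voom) were alternatives, as were other filters, scalings, a replicate block, a cumulus covariate and leaving out each library. Scripts were tested on simulated data. Replicates differed by more than sampling noise (chi-square per degree of freedom 13.8 to 57.6). Reads carry no molecular identifiers, so intervals from counts cover counting error only.

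The members and lists were chosen with earlier results of these data known. Named were all 9 members, the 4 genes highest per length of each pathway list, any gene of those lists past the threshold (there was none), and the 2 genes most like each member, which for Adcy3 are not reported here. Erythroid markers, Cd52 and Pde4c were not matched and are not analysed here. Poly-A selection means that a transcript with a shortened tail may be undercounted.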

Additional observations from a re-analysis of the deposited data

How the results depend on the processing

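No member passed the threshold in any of the 3 pairs or the joint test under any alternative. Over 399 recomputed log2 fold changes of members, 381 kept their direction, and the lowest adjusted p was 0.402 (edgeR, Prkar2b in GFP High against RFP without GFP High 3). Counts of all genes called moved more. The edgeR count of 2 for GFP High against RFP was 16 without the filter on low counts, 12 with DESeq2, 1 with limma-voom, 4 with the replicate block, and 0 to 2 with 1 library left out (0 when GFP High 1 or 3 was absent, and likewise RFP 2 or 3). The 3 genes of GFP Low against RFP became 34 without the filter, 10 with DESeq2, 1 with limma-voom and 2 to 3 with 1 library left out. The 0 of GFP High against GFP Low became 16 without the filter, 4 with DESeq2, and 0 to 1 with 1 library left out (1 without GFP High 3). The 2 of the joint test became 70 without the filter, 97 with DESeq2 and 1 with limma-voom. The causes were not tested.

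Changes of sign occurred only when 1 library was left out, 18 in all, 14 of them in GFP Low against RFP. There the ranges were -0.025 to 0.099 for Gpr3, -0.30 to 1.13 for Gpr12, -0.27 to 0.35 for Adcy3, -0.047 to 0.040 for Pde3a, -0.0011 to 0.088 for Cdc25a, -0.027 to 0.15 for Cdc25b and -0.072 to 0.062 for Marf1. In GFP High against GFP Low they were -0.010 to 0.086 for Wee2 and -0.082 to 0.30 for Cdc25b, and in GFP High against RFP -0.037 to 0.35 for Cdc25b. With the authors' FPKM in place of CPM per kilobase, 2 group means shifted by more than 1 SD between libraries, both in GFP Low, Wee2 from 112.6 to 111.3 (SD 0.851) and Marf1 from 20.6 to 20.3 (SD 0.0477). These SDs are small, and no other group mean shifted by as much as its SD.

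Replicate numbers showed no clear pairing of the libraries by expression. Same-numbered libraries had correlated deviations of -0.0905 to 0.00675 in GFP High with RFP, -0.175 to 0.167 in GFP Low with RFP and -0.0488 to 0.135 in GFP High with GFP Low, and a library correlated best with its own number in 6 of 18 cases. With the replicate block the other counts of genes called were 3 (GFP Low against RFP), 0 (GFP High against GFP Low) and 2 (joint test). The widest intervals were those of Gpr12 and Adcy3, the members with the fewest counts.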

Other observations

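Values of the adenylyl cyclases Adcy10 and Adcy2 are given here because of their levels in GFP High, and both are named after those were seen. Adcy10, the soluble cyclase, had 27, 65 and 32 counts (GFP High 1, 2 and 3), 2, 2 and 17 (GFP Low), and 5, 11 and 19 (RFP). Every GFP High library lay above all others, a separation seen for 4.88% of all genes against RFP and 4.69% against GFP Low. The log2 fold change was 1.88 against RFP (SE 1.02, edgeR adjusted p = 0.997) and 2.64 against GFP Low (SE 1.22, edgeR adjusted p = 0.998). Adcy2 had 3, 6 and 55 counts (GFP High), 57, 101 and 125 (GFP Low), and 95, 48 and 99 (RFP). Its log2 fold change was -1.73 against RFP (SE 1.06, edgeR adjusted p = 0.997) and -2.0 against GFP Low (SE 1.03, edgeR adjusted p = 0.998), and GFP High 3 lay within the range of RFP. Neither passed the threshold.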
